A study of Mus musculus with 18 samples.

Results

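The genes described here are 7 transcription factors of the basic leucine zipper (bZIP) class: Cebpa, Cebpb, Cebpd and Cebpg of the C/EBP family, Hlf and Tef of the PAR bZIP family, and Nfil3, a repressor that shares the DNA sites of the PAR bZIP factors. They were picked by symbol, and they were chosen from their measured response to IL-1β in these same tables, so their fold changes are given as a description. Where a member is said to be called, this says only on which side of the threshold used for all genes it lay, and it is not a test of the member. All 7 were present in each of the 3 gene count tables, where Pico listed 18108 genes, V4 18051 and TruSeq 19424 (21018 different genes, of which 16184 were shared by the 3 tables). The samples are livers of 12-week-old male C57/B6J mice, 3 injected intraperitoneally with 20 µg/kg of the cytokine IL-1β and 3 with saline, collected 4 h later. The labels name no other allele or agent, and the hour of the day at which each liver was taken was not given in the sources used here. The saline mice are called U9574, U9575 and U9576 and those given IL-1β I9579, I9582 and I9583. Each RNA was made into libraries with 3 kits: Pico (1.7 to 2.6 ng of RNA, stranded total RNA, enzymatic removal of ribosomal cDNA), V4 (0.8 to 1.3 ng, unstranded, poly(A) primed) and TruSeq (200 ng, stranded, poly(A) selected), giving 18 libraries. The amount of RNA changed with the kit. Read length (150 bases) and sequencer model were the same for Pico and V4. TruSeq differed from them in both (125 bases), and its libraries came from an earlier study. Where kits differ, the parts of the factors that changed between them cannot be told apart.

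C/EBP proteins bind DNA as dimers through a basic region and a leucine zipper. In the liver, C/EBPα keeps hepatocytes in their metabolic state, whereas C/EBPβ and C/EBPδ are induced by inflammatory signals and act on acute-phase genes. C/EBPγ lacks a strong activation domain and dimerises with the others. HLF, TEF and their relative DBP are activators whose levels follow the circadian clock and which control detoxification genes, and NFIL3 (also called E4BP4) represses through the same sites.

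Each Pico library held 4024632 to 4134070 counted reads, each V4 library 12013453 to 12352473 and each TruSeq library 12348864 to 12858237. The authors normalized the tables separately, so levels set across kits below carry no test. Libraries of V4 differed most from each other. The SD of the log2 difference between 2 V4 mice of the same treatment was 0.784 to 0.881 (10528 genes averaging 20 counts or more), except for the saline mice U9574 and U9575, which differed by only 0.549. In TruSeq it was 0.332 to 0.4 and in Pico 0.457 to 0.552. By this SD, U9574 and U9575 were therefore more alike in V4 than any other pair of a treatment. By chi-square per degree of freedom they were not, at 35.9 against 22.6, 24.8 and 33.7 for the IL-1β pairs. The other saline pairs of V4 were at 58.1 and 98.9. Where the V4 value of a member rests on the third saline mouse, U9576, it is given with and without that mouse.

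Cebpa (ENSMUSG00000034957, mm9 chromosome 7, 35904312 to 35906945, plus strand, 1 exon) encodes C/EBPα. In TruSeq it had 1291, 1414 and 1532 counts in the IL-1β mice and 2722, 3498 and 3594 in the saline mice. Pico gave 698, 785 and 690 counts after IL-1β against 1351, 1680 and 1915 after saline. V4 gave 490, 513 and 481 against 660, 890 and 1463. Every IL-1β mouse was below every saline mouse in all 3 kits. The log2 fold change was -1.16 (SE 0.12, 95% interval -1.44 to -0.89) in TruSeq, -1.15 (SE 0.13) in Pico and -0.94 (SE 0.27, interval -1.53 to -0.35) in V4, so the level after IL-1β was 0.447, 0.451 and 0.522 times the saline level. The V4 libraries of saline mice spread more than those of the other kits, and mouse U9576 was the highest. Without it the V4 value was -0.64 (SE 0.18), and Cebpa was not called in V4 when mouse I9579, I9582, I9583, U9575 or U9576 was left out (-0.98 to -0.64), with TMM factors (-0.78) or at equal depth, where its value was unchanged. These are bulk livers, so fewer cells of a type and less RNA per cell cannot be told apart here or below.

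**Figure D1:**
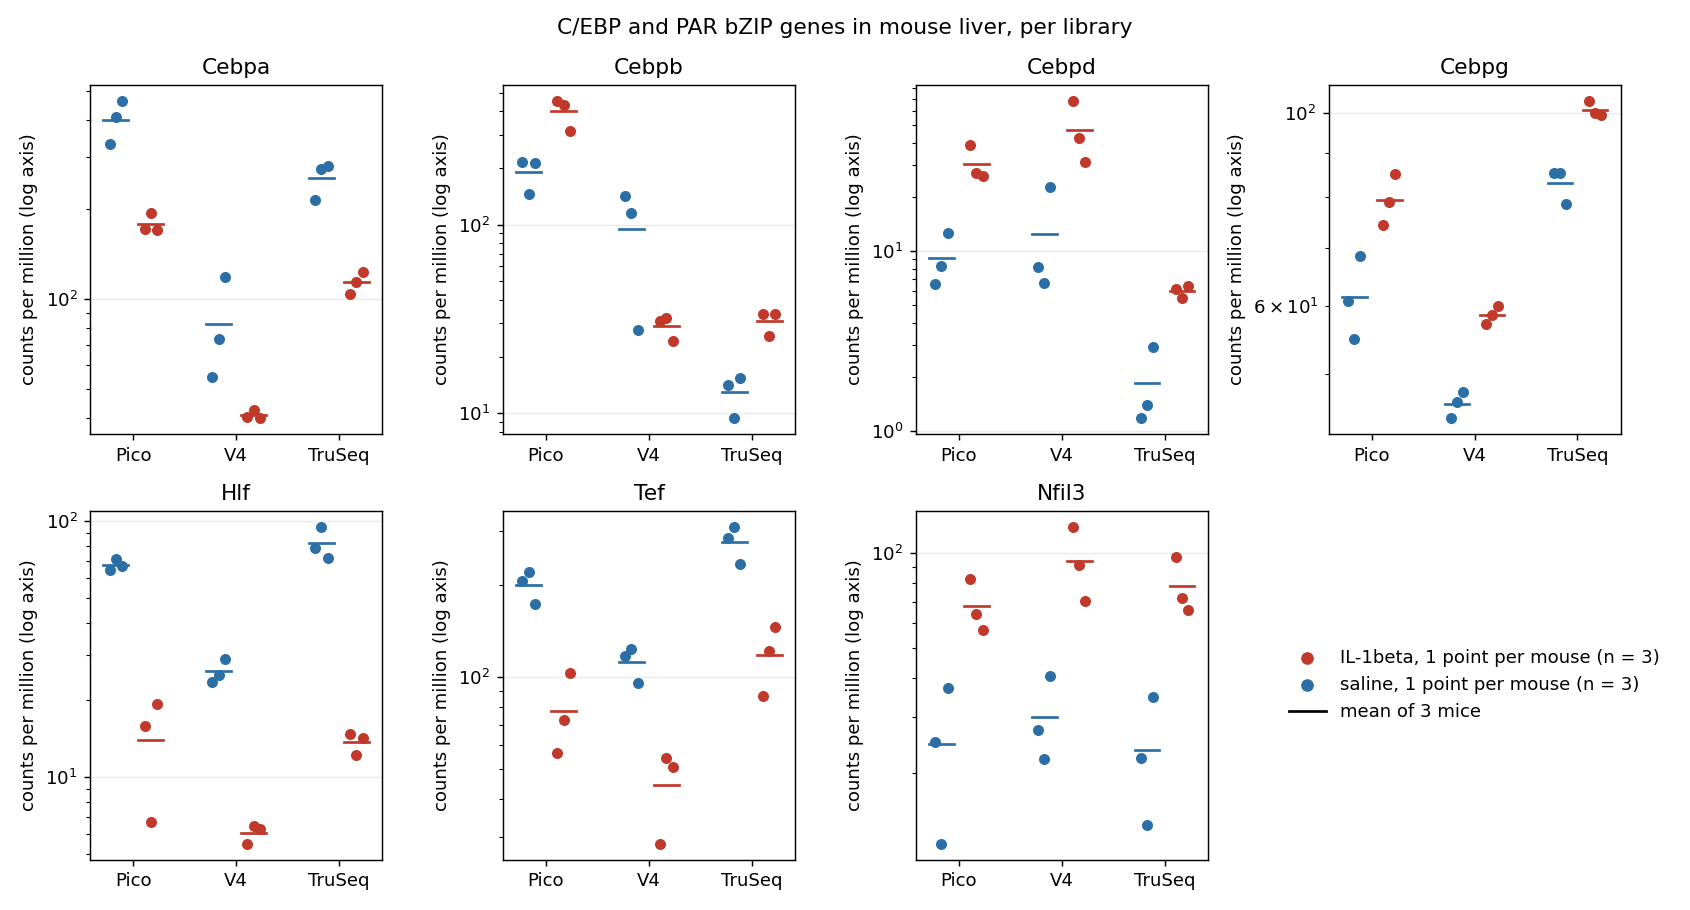
Level of each gene in each library, in CPM (counts scaled to the total of the library) on a log axis, by kit and treatment. Points are mice, 3 per group, and short lines are group means. Cebpa, Hlf and Tef lie lower after IL-1β in each kit, Cebpd, Cebpg and Nfil3 lie higher, and Cebpb lies higher in Pico and TruSeq, while in V4 its groups overlap.

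Cebpb was the only member whose direction differed between kits. It encodes C/EBPβ, an activator of acute-phase genes, and lies on chromosome 2 (ENSMUSG00000056501, mm9, 167514415 to 167515918, plus strand, 1 exon). Pico gave 1831, 1736 and 1267 counts after IL-1β against 872, 595 and 878 after saline. TruSeq gave 419, 318 and 416 against 179, 121 and 197. In both kits the groups were apart, with a log2 fold change of 1.07 (SE 0.16, interval 0.74 to 1.41) in Pico and 1.27 (SE 0.19, interval 0.85 to 1.7) in TruSeq, or 2.11 and 2.42 times the saline level. V4 gave 375, 386 and 292 counts after IL-1β and 1696, 1387 and 341 after saline. There the saline mice U9574 and U9575 were far above all IL-1β mice, whereas U9576 lay among them, so the groups overlapped. The V4 fold change was -1.4 (SE 0.54, interval -2.59 to -0.22). Without mouse U9576 it was -2.14 (SE 0.18), a fit whose saline group is U9574 and U9575, the V4 pair with the lowest SD above. Without U9574 it was -0.96 and without U9575 -1.11. Cebpb was not called in V4, except with edgeR or without U9576.

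The same RNA of these mice gave no such pattern in the other kits. The saline mice U9574, U9575 and U9576 had 14.1, 9.45 and 15.3 CPM of Cebpb in TruSeq and 213.6, 144.4 and 212.4 in Pico, and 141.2, 114.7 and 27.6 in V4. The IL-1β mice had 30.8, 32 and 24.2 CPM in V4 and 33.7, 25.8 and 33.5 in TruSeq. The 3 IL-1β mice were thus at like levels in the 2 poly(A) kits, whereas the saline mice U9574 and U9575 were far higher in V4 than in TruSeq. Against Pico the contrast lay elsewhere. In Pico the IL-1β mice had 452.5, 431.3 and 313.7 CPM, and their log2 ratio of Pico over V4 was 3.77 ± 0.0932. The median of all genes compared was 0.501 and their 95th percentile 3.57. Saline mice U9574 and U9575 differed less between Pico and V4, with 0.334 the lowest ratio of the 6 mice, and U9576 differed more. Which kit departed was not tested. On the log2 scale, Cebpb in V4 over Cebpb in TruSeq was -0.095 ± 0.392 (SD, n = 3) in the IL-1β mice and 2.58 ± 1.51 in the saline mice, and ran from -0.468 to 3.59 over the 6 mice.

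**Figure D2:**
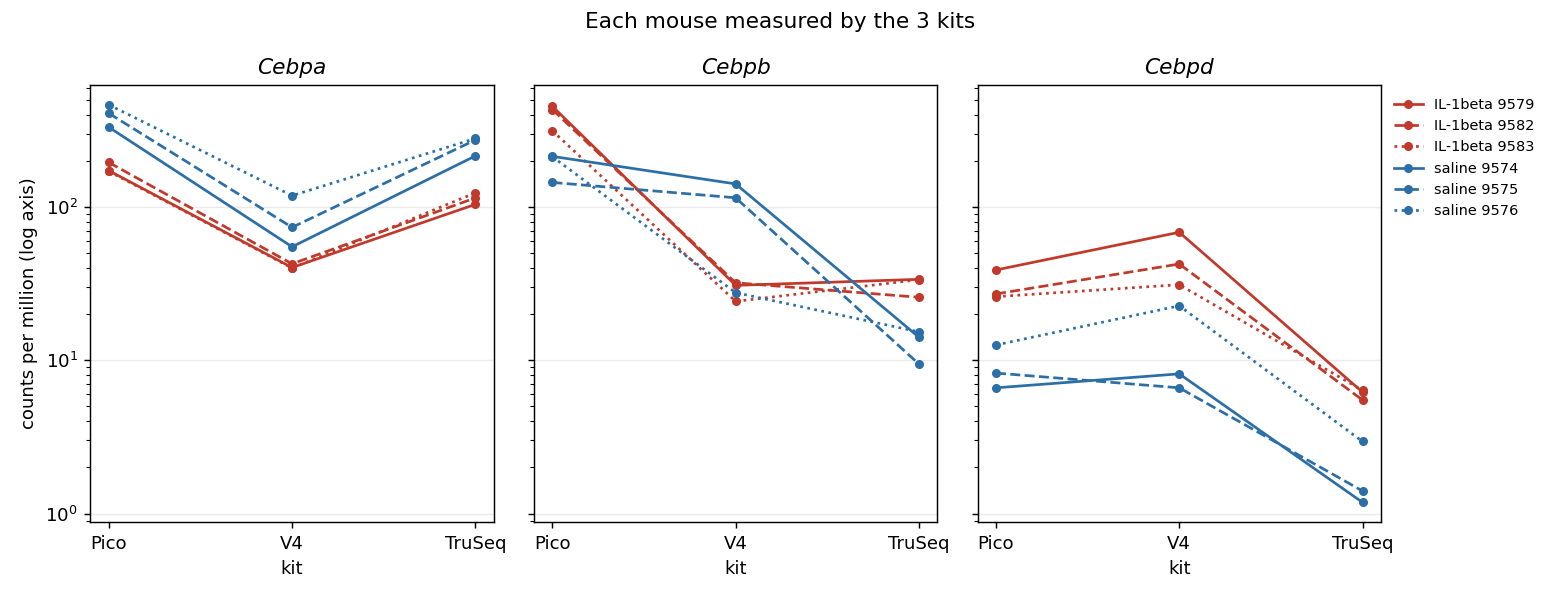
CPM (log axis) of Cebpa, Cebpb and Cebpd in each mouse, with a line joining the 3 kits. For Cebpa and Cebpd the IL-1β and saline lines stay apart in every kit. For Cebpb the lines of saline mice U9574 and U9575 cross those of all IL-1β mice in V4. There U9576 (27.6) lies above I9583 (24.2) only.

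Fitted as a difference in log2 fold change, Cebpb was at -2.68 for V4 minus TruSeq (SE 0.76, interval -4.3 to -1.06) and at 2.48 for Pico minus V4 (SE 0.6, interval 1.21 to 3.74), and at -0.2 for Pico minus TruSeq (SE 0.29, interval -0.82 to 0.42). With mouse U9576 left out of both kits the first of these was -3.55 and the second 3.31. Without U9574 they were -2.31 and 2.13, and without U9575 -2.17 and 2. Over the 7 members, 0 were called in each of the 3 differences (limma-voom with a kit by treatment interaction, adjusted p of at most 0.05), beside a background of 0% of 17207 genes for Pico against TruSeq, 0% of 17147 for V4 against TruSeq and 0% of 16395 for Pico against V4. At an unadjusted p under 0.05 the numbers of all genes were 945, 1090 and 900. edgeR called 0 genes in each and DESeq2 called 4, 62 and 14. Since the disagreement between kits was part of the choice of members, these differences of Cebpb are a description. For the other 6 members the differences lay between -0.31 and 0.49, and every interval held 0. The widest, for Cebpd in V4 against TruSeq, ran from -1.53 to 2.06.

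Cebpb has the highest GC content of the members. Its exon holds 67.2% G and C, above 99.7% of the genes in the tables (median 49.6%), and its coding region of 888 bases holds 73.4%. The richest 150 bases of the coding region outside the overlap described next are shown, since base composition sets this transcript apart from Hlf or Cebpg. They lie at chr2:167514619-167514768 on the plus strand (mm9, NCBIM37 sequence) and hold 82.7% G and C.
Cebpb coding stretch: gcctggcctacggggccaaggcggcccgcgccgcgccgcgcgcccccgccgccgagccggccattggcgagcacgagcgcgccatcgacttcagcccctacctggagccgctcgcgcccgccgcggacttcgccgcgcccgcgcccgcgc
An exon of Tmem189 on the minus strand overlaps Cebpb over 312 bases (chr2:167515011-167515322), inside the Cebpb coding region. V4 counts carry no strand, so V4 reads there cannot be assigned to one gene by their orientation. Tmem189 had 82, 129 and 200 V4 counts in the IL-1β mice and 216, 305 and 264 in the saline mice. The part of Tmem189 reads in the V4 value of Cebpb was not tested.

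Cebpd (ENSMUSG00000071637, mm9 chromosome 16, 15887379 to 15888559, plus strand) encodes C/EBPδ, an early inflammatory member. The annotation of mm9 used here types it as a pseudogene with 2 exon blocks. TruSeq gave 77, 68 and 79 counts after IL-1β against 15, 18 and 38 after saline. Pico gave 157, 109 and 105 against 27, 34 and 52, and V4 gave 832, 512 and 375 against 98, 80 and 280. The groups were apart in each kit, and mouse U9576 was the highest saline mouse in all 3. The log2 fold change was 1.79 (SE 0.29) in TruSeq, 1.76 (SE 0.31) in Pico and 2.06 (SE 0.44) in V4, equal to 3.47, 3.38 and 4.16 times the saline level. Without mouse U9576 the V4 value was 2.6 (SE 0.5). In V4 the call was lost without mouse I9582, U9574 or U9575 (1.71 to 2.1).

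Cebpg (ENSMUSG00000056216, mm9 chromosome 7, 35831441 to 35841522, minus strand) encodes the C/EBP partner without a strong activation domain and is a near neighbour of Cebpa. Its counts were 1285, 1235 and 1234 after IL-1β against 1080, 1091 and 1012 after saline in TruSeq. Pico gave 301, 318 and 344 against 248, 226 and 283, and V4 gave 695, 707 and 723 against 535, 562 and 589. This was the smallest difference of the 7 genes, and the groups were still apart in every kit. The log2 fold change was 0.28 (SE 0.09) in TruSeq, 0.38 (SE 0.15) in Pico and 0.34 (SE 0.17, interval -0.03 to 0.72) in V4. With TMM factors, which place the median of all genes near 0, these became 0.44, 0.51 and 0.51. Cebpg was not called in Pico and V4, but it was called in Pico with TMM factors, edgeR or DESeq2 and in V4 with DESeq2. The TruSeq call was lost without mouse I9579, I9582, U9575 or U9576 (0.24 to 0.3).

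Hlf (ENSMUSG00000003949, mm9 chromosome 11, 90197849 to 90252231, minus strand) encodes hepatic leukemia factor and had the largest fold change of the members in Pico, downward. It was also the largest in TruSeq and V4, but Cebpd was larger in V4 with TMM factors, edgeR or DESeq2 and without U9576 or I9583, and in TruSeq at equal depth. TruSeq gave 184, 151 and 177 counts after IL-1β against 997, 1219 and 927 after saline. Pico gave 64, 27 and 78 against 262, 293 and 275, and V4 gave 67, 78 and 76 against 283, 303 and 359. The highest IL-1β mouse was far below the lowest saline mouse in each kit. The log2 fold change was -2.57 (SE 0.14) in TruSeq, -2.39 (SE 0.28) in Pico and -2.08 (SE 0.29) in V4, so the saline level was 5.92, 5.24 and 4.23 times the IL-1β level. Mouse I9582 was the lowest in Pico, with 27 counts, and without single mice the Pico value ranged from -2.69 to -1.94.

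Tef (ENSMUSG00000022389, mm9 chromosome 15, 81632851 to 81657291, plus strand) encodes thyrotroph embryonic factor, which binds the same sites as HLF. TruSeq gave 1079, 1505 and 1806 counts after IL-1β against 3612, 3967 and 3007 after saline. Pico gave 229, 292 and 416 against 839, 911 and 718, and V4 gave 348, 656 and 612 against 1406, 1490 and 1185. The groups were apart in each kit, and mouse I9579 was the lowest IL-1β mouse in all 3. The log2 fold change was -1.25 (SE 0.18) in TruSeq, -1.41 (SE 0.17) in Pico and -1.38 (SE 0.24) in V4. Its first exon overlaps by 193 bases that of the noncoding RNA Gm17597 on the minus strand, which had at most 14 counts in any library.

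Nfil3 (ENSMUSG00000056749, mm9 chromosome 13, 53062578 to 53076442, minus strand), the repressor of PAR bZIP sites, was higher after IL-1β while Hlf and Tef were lower. TruSeq gave 1205, 885 and 817 counts against 282, 175 and 447 in the saline mice. Pico gave 334, 257 and 229 against 102, 49 and 154, and V4 gave 1475, 1100 and 848 against 329, 267 and 503. No saline mouse reached an IL-1β mouse. The log2 fold change was 1.81 (SE 0.28) in TruSeq, 1.58 (SE 0.29) in Pico and 1.66 (SE 0.27) in V4. Mouse I9579 was the highest IL-1β mouse and U9576 the highest saline mouse in all 3 kits, and mouse I9579 was also the highest for Cebpd in Pico and V4.

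**Figure D3:**
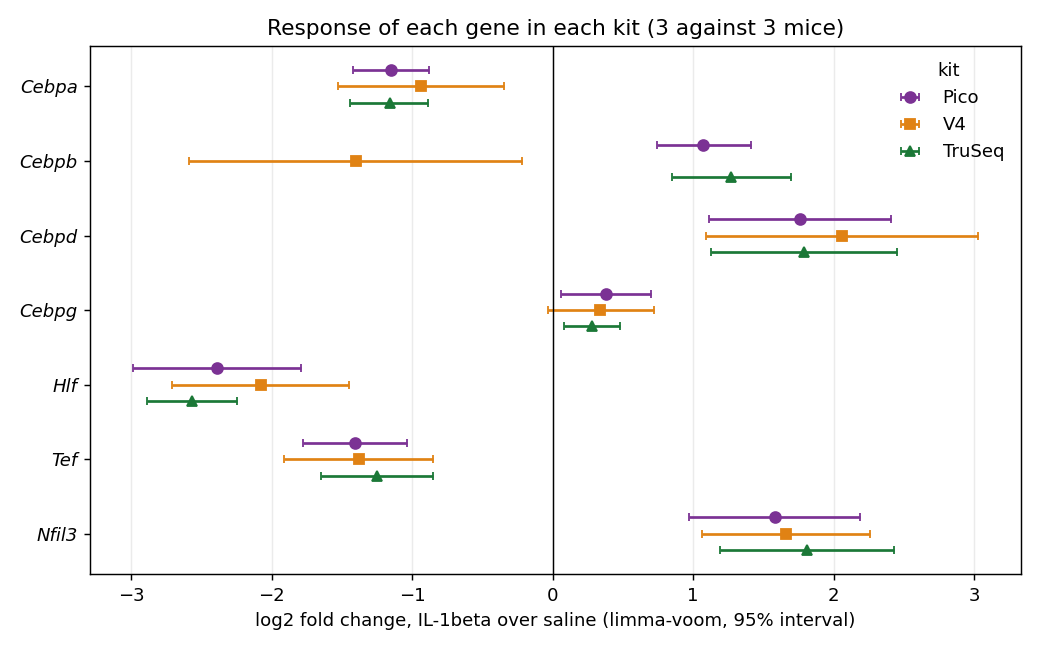
Log2 fold change of IL-1β over saline for each gene in each kit, with 95% intervals from limma-voom (3 against 3 mice). The intervals of the 3 kits overlap for 6 genes, and for Cebpb the V4 value of -1.4 lies on the other side of 0 from the values of Pico and TruSeq.

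The same counts can be put as ratios within each library, which do not depend on the depth. Such ratios restate the directions given above and are no further support for them. The ratio of Nfil3 to Hlf plus Tef, per kilobase of exon, had a median of 2.03 after IL-1β (1.57 to 3.59) and 0.227 after saline (0.125 to 0.42) in TruSeq. In Pico the medians were 3.07 and 0.342 and in V4 5.69 and 0.731, and the groups did not overlap in any kit. The ratio of Hlf to Tef was itself lower after IL-1β, at 0.119 to 0.207 against 0.334 to 0.373 in TruSeq, 0.112 to 0.339 against 0.378 to 0.464 in Pico, and 0.144 to 0.233 against 0.244 to 0.367 in V4. The ratio of Cebpd to Cebpa, again per kilobase, had a median of 0.115 after IL-1β and 0.0123 after saline in TruSeq, 0.34 and 0.0452 in Pico, and 2.23 and 0.331 in V4. The ratio of Cebpb to Cebpa was 0.394 to 0.568 after IL-1β and 0.0606 to 0.115 after saline in TruSeq, and 3.22 to 4.59 and 0.62 to 1.13 in Pico. In V4 it was 1.06 to 1.34 after IL-1β and 0.408 to 4.5 after saline, with overlap. The V4 saline values were 4.5 in U9574, 2.73 in U9575 and 0.408 in U9576. Without U9576 the V4 ratio was thus higher after saline, with the groups apart.

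The RefSeq promoter table (GRCm38.p6) matched 6 of the 7 members, with 2 windows for Tef, and Cebpd was not among them. In each window the 250 bases before the start were read, and 11 motifs were searched on both strands: TTGCGCAA and TTGCNNAA for C/EBP, TTACGTAA and TTATGTAA for PAR bZIP factors, GGANTTTCC for NF-κB, TTCNNNGAA for STAT factors, TGACGTCA and the shorter TGACG for CREB, CACGTG (the E-box of the clock factors), AGGTCA for REV-ERB, and CCAAT. The windows of Hlf, Tef and Nfil3 are shown, since Nfil3 differed in direction from Hlf and Tef while their proteins bind the same sites. Capitals mark the matches. The windows are chr11:90390918-90391167 (minus strand) for Hlf, chr15:81802423-81802672 and chr15:81811164-81811413 (plus strand) for Tef, and chr13:52981040-52981289 (minus strand) for Nfil3.
Hlf: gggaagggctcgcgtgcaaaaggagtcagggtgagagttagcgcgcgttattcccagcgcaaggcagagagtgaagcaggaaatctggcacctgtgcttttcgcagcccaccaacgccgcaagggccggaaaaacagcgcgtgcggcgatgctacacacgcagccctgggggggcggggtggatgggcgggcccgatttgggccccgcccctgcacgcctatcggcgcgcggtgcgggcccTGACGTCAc
Tef, first window: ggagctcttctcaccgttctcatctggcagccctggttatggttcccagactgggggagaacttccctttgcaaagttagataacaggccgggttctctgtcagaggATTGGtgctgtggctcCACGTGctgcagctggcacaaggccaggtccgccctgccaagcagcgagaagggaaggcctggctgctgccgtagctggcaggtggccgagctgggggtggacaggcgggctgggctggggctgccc
Tef, second window: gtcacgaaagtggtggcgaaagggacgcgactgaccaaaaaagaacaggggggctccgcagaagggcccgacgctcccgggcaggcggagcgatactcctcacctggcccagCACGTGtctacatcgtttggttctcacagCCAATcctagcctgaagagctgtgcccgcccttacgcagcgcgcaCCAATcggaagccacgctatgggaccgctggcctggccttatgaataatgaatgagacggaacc
Nfil3: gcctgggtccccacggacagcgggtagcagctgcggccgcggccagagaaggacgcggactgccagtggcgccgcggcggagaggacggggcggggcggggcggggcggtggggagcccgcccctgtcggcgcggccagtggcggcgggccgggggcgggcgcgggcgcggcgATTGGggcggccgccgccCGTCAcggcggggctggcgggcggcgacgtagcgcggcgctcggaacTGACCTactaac
Hlf held TGACGTCA starting 9 bases before the start, a match found in 1.55% of all 32851 windows of this length. TGACG is contained in it on both strands. Both Tef windows held CACGTG, at 127 and 138 bases before their starts, against 6.02% of all windows. Nfil3 held AGGTCA at 12 bases on the minus strand (14% of windows), TGACG at 59 bases (17.8%) and CCAAT at 77 bases (33.8%). Cebpb held 3 matches to TGACG and no other, Cebpg held 2 to CCAAT, and Cebpa held no match to any of the 11. The windows of Cebpb and Nfil3 were 81.6% G and C, above 99.3% of windows. Matches are letters in this window and no measure of binding.

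At an adjusted p of at most 0.05 (limma-voom with Benjamini-Hochberg adjustment over all genes of the kit), 4 members were called higher and 3 lower in TruSeq, where 12.3% and 21.8% of all genes were. In Pico, 3 were called higher and 3 lower, with 6.78% and 10.8% of all genes. In V4, 2 were called higher and 3 lower, with 3.6% and 7.41% of all genes. Counted by groups that did not overlap, 4 members were higher and 3 lower in both TruSeq and Pico, and 3 were higher and 3 lower in V4. Of all genes, 17.1% and 27.9% met this in TruSeq, 12.6% and 18.6% in Pico, and 9.09% and 18.6% in V4. Since the members were chosen on this contrast, nothing is read from these counts. Cebpa, Cebpd, Hlf, Tef and Nfil3 were the 5 called in all 3 kits in 1 direction. Over all genes the log2 fold change had a median of -0.17 in TruSeq, -0.12 in Pico and -0.22 in V4, and TMM factors moved it up by 0.16, 0.13 and 0.17. The share of all calls that were higher then went from 36% to 50.9% in TruSeq, from 38.6% to 52.9% in Pico and from 32.7% to 49.7% in V4, and no member changed direction.

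Per kilobase of exon, Cebpa had the highest level of the members in the saline TruSeq libraries, at 97.2 ± 13.5 CPM per kilobase (SD, n = 3 mice). Tef followed with 35.2 ± 4.94, then Cebpg with 16.8 ± 0.771, Hlf with 12.6 ± 1.83, Nfil3 with 11.6 ± 5.23, Cebpb with 8.63 ± 2.06 and Cebpd with 1.57 ± 0.817. The mice of Nfil3 overlapped with those of Cebpg, Hlf and Cebpb, and the other neighbours in this order did not overlap. After IL-1β in TruSeq, Cebpa was still first, at 43.3 ± 3.72, and Nfil3 was second, at 38.6 ± 8.17, with overlapping mice. Cebpb (20.6 ± 3.02) overlapped with both Cebpg (20.5 ± 0.436) and Tef (15 ± 3.76), and then came Cebpd with 5.11 ± 0.387 and Hlf with 2.12 ± 0.21. With the length of the longest annotated transcript in place of all exons, Tef ranked above Cebpb and Cebpg after IL-1β, at 26.8 ± 6.71. In Pico the order after IL-1β began with Cebpb, at 265.4 ± 49.7, above Cebpa at 68.1 ± 5.13, and in saline Cebpa (152.1 ± 25.2) and Cebpb (126.4 ± 26.3) overlapped. In V4 after IL-1β, Nfil3 was first, at 46.5 ± 12.6, overlapping with Cebpd at 40.1 ± 16.2. The order of levels between members therefore depended on the kit.

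From Pico to TruSeq, Cebpb and Cebpd were the members whose level differed most. Pico over TruSeq, as a log2 ratio, was, for Cebpb, 3.87 ± 0.0751 in saline mice and 3.68 ± 0.423 in IL-1β mice, and only 4 of 10432 genes (10 counts or more on average in each kit) had a higher mean ratio. For Cebpd it was 2.35 ± 0.233 and 2.32 ± 0.307, with 59 genes above it. For V4 to TruSeq the ratio of Cebpd was 2.6 ± 0.379 and 2.88 ± 0.587, with 22 genes above it. The middle 90% of genes lay between -1.01 and 1.3 for Pico to TruSeq and between -2.82 and 1.39 for V4 to TruSeq. Cebpa, with a like GC content of 62.6%, was within those ranges, at 0.65 for Pico and -1.59 for V4. The fifth of genes with the highest GC content (at least 55.1%) had a median of 0.013 for Pico to TruSeq and 0.121 for V4 to TruSeq, against 0.025 and -0.485 over all genes, and the 548 single-exon genes had 0.0539 and -0.259. Among these high-GC genes the 95th percentile was 1.28 and 1.92, so Cebpd lay above it in both ratios and Cebpb in the first. The cause was not tested. Cebpg, Hlf, Tef and Nfil3 lay within the middle 90% in both. From Pico to V4 the mean ratio over the 6 mice was 2.53 for Cebpb (3.77 ± 0.0932 after IL-1β and 1.29 ± 1.44 after saline, SD, n = 3), 2.24 for Cebpa and 1.23 for Hlf, and -0.408 for Cebpd, and the middle 90% of genes lay between -1.94 and 3.57.

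**Figure D4:**
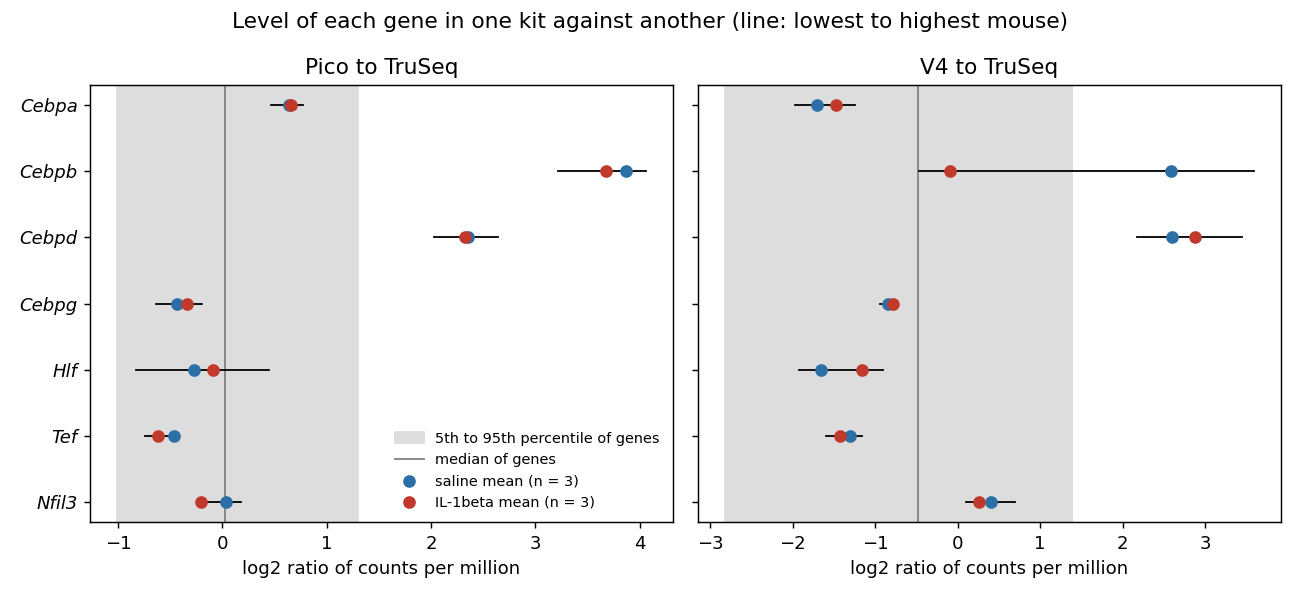
Log2 ratio of CPM between kits for each gene. Points are group means of 3 mice, lines run from the lowest to the highest of 6 mice, and the grey band spans the 5th to 95th percentile of 10432 genes. Cebpb and Cebpd lie to the right of the band for Pico to TruSeq, and the Cebpb line for V4 to TruSeq runs from -0.468 to 3.59.

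The gene lists from here on were made with earlier results of these data known. Genes named from the target, partner and clock lists were mostly picked for the size of their change in TruSeq. Their counts and adjusted p-values are therefore a description and no independent support. Among the relatives of the members, Dbp, the third PAR bZIP activator, fell in every kit, with log2 fold changes of -1.94 in TruSeq (SE 0.32, limma-voom adjusted p = 0.0015), -2.51 in Pico (SE 0.36, adjusted p = 0.00011) and -1.93 in V4 (SE 0.27, adjusted p = 0.0013). Its TruSeq counts were 152, 179 and 236 after IL-1β and 981, 949 and 430 after saline. All 3 PAR bZIP genes were therefore lower after IL-1β in all 3 kits. Ddit3, which encodes CHOP, a C/EBP relative of the stress response, rose by a log2 fold change of 2.44 in TruSeq (adjusted p = 9.1e-05), 2.19 in Pico (adjusted p = 0.00059) and 1.84 in V4 (adjusted p = 0.0026). Cebpz, a relative in name that acts in ribosome assembly, rose in TruSeq (0.67, adjusted p = 0.00094) and Pico (0.66, adjusted p = 0.0051). In V4 its value was 0.87 (adjusted p = 0.056). Cebpe, a factor of granulocyte maturation, had 31 to 43 TruSeq counts after saline and 8 to 15 after IL-1β, and fell by 1.61 (adjusted p = 0.0031). It had 0 to 12 counts in Pico and 1 to 26 in V4 and did not pass the test there (adjusted p = 0.21 and 0.27).

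Of 11 partners and regulators of these factors, 4 rose in TruSeq, 3 in Pico and 2 in V4, with a median log2 fold change of 0.34, 0.0919 and -0.0445 against -0.172, -0.116 and -0.224 over all genes. The shares of all genes that rose were 12.3%, 6.78% and 3.6%. Stat3, which carries the interleukin-6 signal, rose by 1.68 in TruSeq (SE 0.17, adjusted p = 8.4e-05), 1.69 in Pico (adjusted p = 5.9e-07) and 1.81 in V4 (adjusted p = 0.00021). Atf4, a bZIP partner of C/EBP proteins, rose by 1.08 in TruSeq (adjusted p = 3.1e-05), 0.86 in Pico (adjusted p = 7.7e-05) and 0.84 in V4 (adjusted p = 0.0089), a V4 call that was lost without mouse U9575 (0.81). The others that rose were Trib1 in TruSeq (0.51) and Pico (0.82) and Creb1 in TruSeq (0.41), the last a call lost without mouse I9579, I9582, U9574 or U9575.

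**Figure D5:**
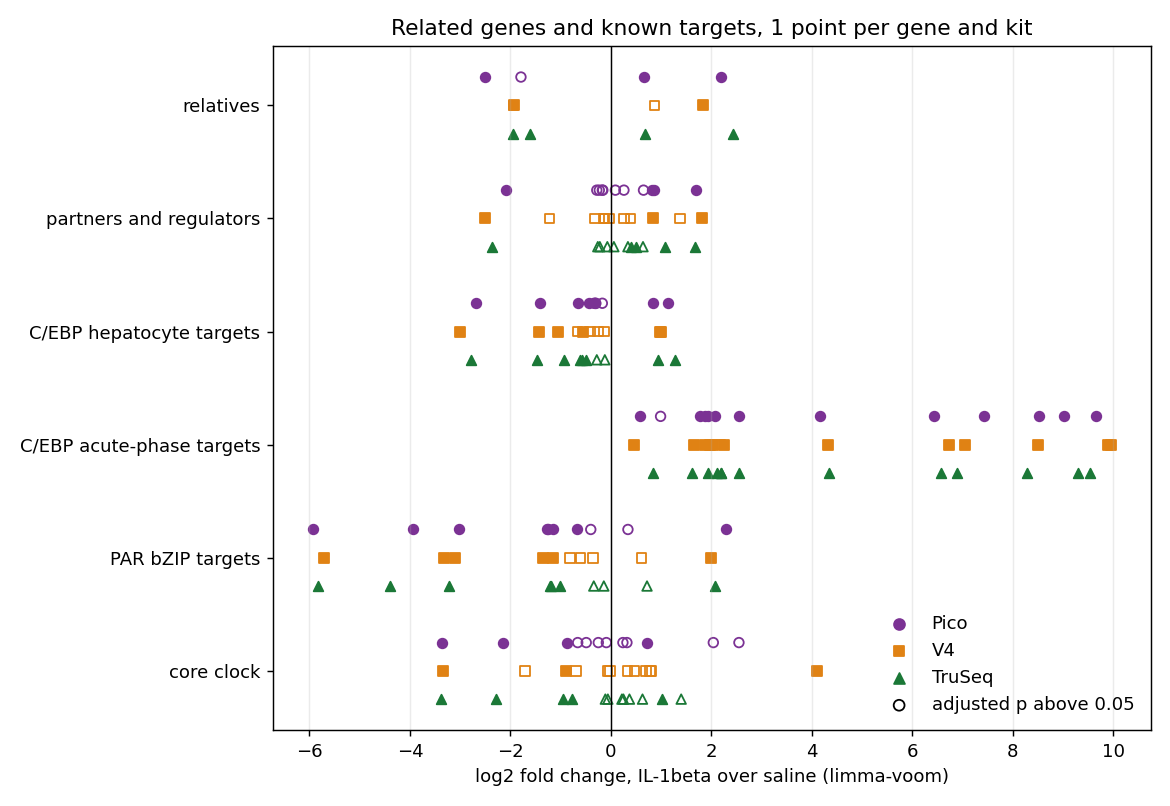
Log2 fold change of IL-1β over saline for the genes of 6 lists, 1 point per gene and kit, filled where the adjusted p is at most 0.05. All 13 acute-phase targets lie right of 0 in each kit, whereas most PAR bZIP targets lie left of 0, with Cyp2b10 near 2 and Alas1 also right of 0.

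Of 13 acute-phase genes listed as C/EBP targets, 13 rose in TruSeq, 12 in Pico and 12 in V4, and 0 fell. Their median log2 fold change was 2.56, 2.56 and 2.25, against -0.172, -0.116 and -0.224 over all genes, of which 12.3%, 6.78% and 3.6% rose. Saa3, an acute-phase serum amyloid, went from a mean of 71.7 to 44066 counts in TruSeq (log2 fold change 9.3, adjusted p = 5.5e-10), and Lcn2, which binds bacterial iron carriers, from 70 to 49487 (9.53, adjusted p = 4.6e-09). In Pico these 2 rose by 9.66 and 9.03 and in V4 by 9.89 and 9.95. Orm3 was the gene not called in Pico and V4, with 0.99 (adjusted p = 0.54) and 2.18 (adjusted p = 0.061). Every gene of this list had a positive log2 fold change in each kit, so the list says nothing about the V4 value of Cebpb. It was also made with earlier results of these data known, so its counts are no independent support.

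Of 10 hepatocyte genes listed as C/EBP targets, 2 rose and 6 fell in TruSeq, 2 and 5 in Pico, and 2 and 4 in V4, with medians of -0.538, -0.321 and -0.488. Without mouse U9576, 6 fell in V4, and over the alternatives 3 to 6 did. Over all genes, 12.3% rose and 21.8% fell in TruSeq, 6.78% and 10.8% in Pico, and 3.6% and 7.41% in V4. The medians over all genes were -0.172, -0.116 and -0.224. G6pc, the last enzyme of glucose release, fell, with -2.78 in TruSeq (adjusted p = 0.002), -2.68 in Pico (adjusted p = 0.00044) and -3.01 in V4 (adjusted p = 0.0033). Gys2, the liver glycogen synthase, fell in TruSeq, Pico and V4, with -1.48, -1.42 and -1.43 (adjusted p = 5.4e-05, 3.6e-06 and 0.0025 from limma-voom). Against this direction, Tat, which degrades tyrosine, rose by 1.28, 1.14 and 0.98 (adjusted p = 0.00023, 1.8e-06 and 0.0051). Hamp, the iron hormone hepcidin and itself an inflammatory target, rose by 0.94, 0.83 and 1 (adjusted p = 0.0048, 0.0023 and 0.017). Its call was lost in Pico without mouse I9582 or I9583 (0.76 to 0.81) and in V4 without mouse I9579, I9582, I9583 or U9575 (0.98 to 1.08).

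Of 10 known or proposed targets of the PAR bZIP factors, 1 rose and 6 fell in TruSeq, 1 and 7 in Pico, and 1 and 5 in V4, with medians of -1.1, -1.2 and -0.979. Over all genes, 12.3% rose and 21.8% fell in TruSeq, 6.78% and 10.8% in Pico, and 3.6% and 7.41% in V4. The medians over all genes were -0.172, -0.116 and -0.224. Cyp7a1, the rate-limiting enzyme of bile acid synthesis, had a mean of 3256 counts after saline and 59.7 after IL-1β in TruSeq and fell, with -5.84 (adjusted p = 2.7e-06), -5.93 in Pico and -5.71 in V4. Nr1i3, the xenobiotic receptor CAR, fell, with -4.4 in TruSeq (adjusted p = 4.8e-07), -3.94 in Pico (adjusted p = 1.7e-08) and -3.32 in V4 (adjusted p = 3.7e-06). Cyp2b10, an inducible drug-metabolising enzyme and a target of CAR, rose by 2.08 in TruSeq (adjusted p = 0.0021), 2.3 in Pico (adjusted p = 0.0002) and 1.99 in V4 (adjusted p = 0.009). The V4 call was lost without mouse U9574 or U9576 (1.65 to 2.09). Alas1 was also above 0, at 0.72 in TruSeq, 0.34 in Pico and 0.61 in V4. It was not called in these fits (adjusted p = 0.083, 0.26 and 0.25). Reads of Cyp2b10, Cyp2a4 and Cyp2a5, as of the Saa and Orm genes, can be shared with near-identical copies, so their values are uncertain.

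Of 12 core clock genes, 1 rose and 4 fell in TruSeq, 1 and 3 in Pico, and 1 and 2 in V4, where 12.3% and 21.8%, 6.78% and 10.8%, and 3.6% and 7.41% of all genes did. Over the alternatives the number that rose ranged from 1 to 4 in TruSeq, 0 to 5 in Pico and 0 to 2 in V4, and the number that fell from 2 to 4, 2 to 3 and 1 to 3. The gene called higher was Per1 in TruSeq and Pico. In V4 it was Arntl, which encodes the activator BMAL1 (means of 4.33 and 66.3 counts after saline and IL-1β, log2 fold change 4.11, SE 1.17, adjusted p = 0.047), a call lost with the 10-count filter and without any 1 mouse other than I9583. Bhlhe40, a repressor, fell with -0.95, -0.88 and -0.9 in TruSeq, Pico and V4 (adjusted p = 0.0079, 0.0024 and 0.038). Its call was lost without I9582 or I9583 in all 3 kits, also without U9576 in TruSeq, and in V4 also without I9579, U9575 or U9576, with TMM factors and at equal depth. Cry1 was called lower in TruSeq (-0.77, adjusted p = 0.05), a call lost in 7 of 12 alternatives. Per3 and Per2, which belong to the repressing arm of the clock, fell in TruSeq, with -3.39 (adjusted p = 4.8e-05) and -2.29 (adjusted p = 0.00032), and in Pico, with -3.37 and -2.15 (adjusted p = 3.9e-06 and 9.5e-05). In V4, Per3 fell by 3.34 (adjusted p = 0.0039) and Per2 was at -1.71 (adjusted p = 0.084). Per1 rose in TruSeq by 1.01 (adjusted p = 0.0029) and in Pico by 0.71 (adjusted p = 0.023), a Pico call lost without mouse I9582, I9583, U9574 or U9576 (0.52 to 0.75), and in V4 was at 0.81 (adjusted p = 0.19). The part of these clock genes in the values of Hlf, Tef and Nfil3 was not tested.

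Cell type markers differed between the treatments as well. Their counts of genes that rose or fell stand beside the shares of all genes. These were 12.3% and 21.8% in TruSeq, 6.78% and 10.8% in Pico, and 3.6% and 7.41% in V4. The 7 hepatocyte markers, Alb among them, were above 0 in all 18 libraries. They summed to 61900 to 68400 CPM after IL-1β and 88200 to 104000 after saline in TruSeq, 41000 to 46700 and 54100 to 65500 in Pico, and 39700 to 44600 and 51500 to 64200 in V4, and 3, 5 and 2 of the 7 fell while 1, 1 and 0 rose. Alb made the largest part of this sum. After IL-1β it averaged 619110 counts in TruSeq, with Apoa1 next at 54054, and 192550 in V4, with Apoa1 at 166340. The marker that rose was Hnf4a, by 0.91 in TruSeq and 0.65 in Pico. Alb and Ttr are also in the list of hepatocyte C/EBP targets. The 7 Kupffer cell markers summed to 64.1 to 92.7 against 133 to 223 in TruSeq, where 5 fell and 1 rose, to 97.1 to 136 against 182 to 238 in Pico and to 44.5 to 71 against 92.7 to 191 in V4, where 4 and 2 fell. The 5 endothelial markers summed to 70.5 to 89.1 against 119 to 131 in TruSeq and 223 to 264 against 284 to 301 in Pico, and overlapped in V4 (25.3 to 43.4 against 39.7 to 45.7). They moved both ways, with 3 falling and 1 (Lyve1, 0.94) rising in TruSeq, 2 and 2 in Pico, and 1 and 0 in V4. The 7 neutrophil markers were higher after IL-1β, at 47.3 to 92.6 against 3.36 to 6.16 in TruSeq, 42 to 58.9 against 0.971 to 5.14 in Pico, and 42.1 to 82.4 against 2.15 to 5.24 in V4. Of those listed, 6 of 7, 6 of 6 and 5 of 6 rose. Mmp8 was at 0 in all saline mice in Pico and V4, Cxcr2 and Retnlg were at 0 in those of Pico, and Ly6g was listed in TruSeq only, at 0 in 4 libraries. The 6 lymphocyte and NK cell markers summed to 0.967 to 1.77 after IL-1β and 1.79 to 2.92 after saline in TruSeq, but overlapped in Pico (2.22 to 4.46 against 1.94 to 3.18) and V4 (0.995 to 2.9 against 1.82 to 4.45). In each kit the neutrophil sum was highest in mouse I9582 and Nfil3 in mouse I9579, an order of 3 mice from which nothing is read. The part of these cells in the levels of the 7 genes was not tested.

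The 3 genes with the profile most similar to each member were taken from the 8960 genes that averaged 20 counts or more in each kit, by Pearson's r of log2 CPM centred within each kit, over 18 libraries of 6 mice. These values share mice, depth and the treatment effect and are a description. Cebpa was closest to Rbp4 (0.988), Nfic (0.988) and Pxmp2 (0.985), Hlf to Fam20a (0.981), Ttc38 (0.98) and Hdhd3 (0.98), and Tef to Klhl25 (0.985), Lims2 (0.98) and Stard5 (0.978). Cebpd was closest to Gadd45g (0.981), Ube2j2 (0.96) and Zfp36 (0.96), Nfil3 to Socs2 (0.968), Igfbp1 (0.967) and Arhgef26 (0.967), and Cebpg to Pcid2 (0.948), Cd302 (0.94) and Eif4a1 (0.939). Cebpb had the weakest likeness, with Ednra (0.847), Mbd2 (0.846) and Csda (0.843). Between members, r was 0.933 for Nfil3 and Cebpd, 0.91 for Hlf and Tef, -0.939 for Nfil3 and Tef and 0.0103 for Cebpb and Cebpd. With Spearman's correlation, 0 or 1 of these 3 genes was shared for each member.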

How the data were processed

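RNA-Seq of mouse liver was measured in 18 libraries of 6 mice, 3 per treatment. The deposited values are gene counts, in whole reads. Per the labels and the study's methods, the authors aligned reads to mm9 with GSNAP, equalised the depth of the libraries of a kit by resampling with PORT and counted reads that follow annotated junctions, in the sense orientation for Pico and TruSeq and on both strands for V4. Each table was normalized separately. No molecular identifiers were used. Gene positions are those of the mm9 annotation (GENCODE), since the tables' own are padded by 294 (Pico), 298 (V4) or 250 (TruSeq) bases.

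Counts of a kit were fitted with limma-voom (limma 3.58.1, R 4.3.3) on library totals, leaving out genes at 0 throughout, with Benjamini-Hochberg adjustment, and genes were called at an adjusted p of at most 0.05. Kits were compared by a kit by treatment interaction. The members and the gene lists were chosen with earlier results of these data known, so members carry no p-value and those of listed genes are a description. Named were the members, their 4 relatives, from each target, partner or clock list up to 2 genes called in TruSeq at either end of the log2 fold changes, and the 3 genes most like each member. Orm3, Alas1, Arntl, Bhlhe40, Cry1, Trib1, Creb1, Tmem189, Gm17597 and single markers were named after their values were seen. A result of the list of partners and regulators is not reported here. Alternatives were edgeR 4.0.16 (quasi-likelihood), DESeq2 1.42.0, TMM factors, a minimum of 10 counts per library in 3 libraries, every row of the tables, thinning to 4024632 counts, other thresholds, leaving out mice singly and the mouse as a block. The fits were tested on simulated data. Summaries used Python 3.11.15, numpy 2.4.6, pandas 2.3.3, scipy 1.17.1, pysam 0.24.0 and matplotlib 3.10.9.

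Since the same RNA entered every kit, mouse numbers pair libraries across kits. Over 8960 genes, deviations from group means correlated for the same mouse at 0.189 to 0.43 (Pico, TruSeq), 0.138 to 0.406 (V4, TruSeq) and 0.0624 to 0.212 (Pico, V4), and for different mice at -0.343 to -0.0236. The deviations of a group sum to 0, so positive values for the same mouse force negative ones, on average, for different mice. The latter are no separate observation. Precision is limited by 3 mice a group. The p-values of a kit measure the spread between its libraries, each from a different mouse, so differences between mice and between library preparations are mixed. The main fits of the differences between kits treat the libraries of a mouse as independent. Replicates differed by more than sampling noise (chi-square per degree of freedom at least 7.63). Sequences are from RefSeq (GRCm38.p6 promoters) and the NCBIM37 genome.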

Additional observations from a re-analysis of the deposited data

How the results depend on the processing

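Over 252 alternative values of the members' log2 fold changes, 239 moved by less than the SD between mice, 13 moved by more (Cebpg, Hlf in V4 and Cebpd in TruSeq), and none changed direction. At an adjusted p of at most 0.01 the members called higher in V4 went from 2 to 1, and with single mice left out they ranged from 1 to 2 (1 without I9582, U9574 or U9575).

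With the mouse as a replicate block, the difference in response between Pico and TruSeq gave 1 called gene in place of 0, not a member, and Cebpb was at -2.93 for V4 minus TruSeq and at 2.69 for Pico minus V4. The block changed no other count of calls. DESeq2 called 4, 62 and 14 genes for Pico against TruSeq, V4 against TruSeq and Pico against V4, among them 1 member, Cebpb, in the second. Without single mice the called genes ranged from 0 to 57 for V4 against TruSeq and from 0 to 39 for Pico against V4, and the members called from 0 to 1, each maximum without U9576. The calls of Cebpb are no test, since it was chosen with its disagreement between kits known.

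Over all genes, Pico called 3179, V4 1986 and TruSeq 6614. At an adjusted p of at most 0.01 these were 1884, 764 and 4081, and at 0.1 V4 called 2982. Without single mice Pico called from 1765 to 2603 (lowest without I9579, I9582 or I9583) and V4 from 908 to 2093 (highest without U9576, far lower without any of the other 5). Fewer samples are fitted there by construction. For the other changes the cause was not tested. The lowest counts of a member were 15 (Cebpd in TruSeq, whose log2 fold change went from 1.79 to 2.5 at equal depth) and 27 (Hlf and Cebpd in Pico).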
